A study of Saccharomyces cerevisiae with 11 samples.

Results

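The de novo pyrimidine pathway of budding yeast (Saccharomyces cerevisiae) was followed through 11 RNA libraries by way of 10 genes: URA1, URA2, URA3, URA4, URA5, URA6, URA7, URA8, URA10 and FUR4. They were picked by name and matched by NCBI Gene number, and all 10 had a row among the 5936 rows of the table that holds GD, SD and control and among the 5931 rows of the one that holds RD and ControlSYN3. The labels name the genotypes GD (GD1 to GD3), SD (SD1 to SD3) and RD (RD1, RD5 and RD6), and call the 2 single libraries control and ControlSYN3 wild-type. They do not spell out the abbreviations or say which markers a strain carries, and they give neither growth medium nor uracil supply. The RD columns are headed MD in the deposited table and were matched to RD by their numbers, which is an inference. Levels are the authors' FPKM (fragments scaled to gene length and library size) from oligo-dT libraries.

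In this pathway Ura2 makes carbamoyl phosphate and joins it to aspartate, Ura4 (dihydroorotase) closes the ring, and Ura1 (dihydroorotate dehydrogenase) oxidises it to orotate. Ura5 and its minor isozyme Ura10 add the ribose phosphate, and Ura3 (orotidine phosphate decarboxylase) makes UMP. Ura6 phosphorylates UMP, Ura7 and its minor isozyme Ura8 turn UTP into CTP, and Fur4 imports uracil. URA3 is also a widely used selection marker, so its copy number and promoter can differ between laboratory strains. The zinc cluster protein Ppr1 is known to activate URA1, URA3, URA4 and URA10 when pathway intermediates build up, and it binds CGG triplets set 6 bases apart.

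The 300 bases before each start codon in the reference genome (RefSeq, build R64, the build named in the submitters' processing notes) were searched on both strands for CGG, any 6 bases and CCG, the spacing known for Ppr1. It was present at URA1, in 2 copies, and at URA3 and URA4, in 1 copy each, and absent from this window of the other 7 genes. Among all 6001 such windows of nuclear protein-coding genes, 1.28% held it. The 4 matches are shown because these 3 genes are compared below, 5′ to 3′ on the strand of the gene with the match in capitals. The first lies at chrXI:24994-25023 and the second at chrXI:25025-25054 (both plus strand), the URA3 stretch at chrV:116006-116035 (plus) and the URA4 stretch at chrXII:963646-963675 (plus).
URA1, distal: tttcttcacCGGGCTTTGCCGaaggttatt
URA1, proximal: cacgatcttCGGCATTCGCCGaaaattttt
URA3: tttttgattCGGTAATCTCCGagcagaagg
URA4: ttcatcattCGGAGAATTCCGatgaatcgg
Counted back from the start codon, the matches begin at base -212 and base -181 at URA1, at base -152 at URA3 and at base -130 at URA4. The whole window of URA3, the gene on which most results turn, is chrV:115867-116166 (plus strand), with the same match in capitals.
URA3 upstream: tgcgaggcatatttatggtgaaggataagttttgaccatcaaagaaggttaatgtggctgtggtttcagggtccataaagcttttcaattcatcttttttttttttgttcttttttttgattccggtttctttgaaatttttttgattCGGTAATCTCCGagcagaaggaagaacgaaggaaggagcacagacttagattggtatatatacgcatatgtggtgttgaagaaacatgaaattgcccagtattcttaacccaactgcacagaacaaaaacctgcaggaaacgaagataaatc
A match is a description of the reference sequence. The labels do not say whether the strains carry URA3 with this upstream region or at this place.

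A second search took TGACTC, the core motif of the amino acid regulator Gcn4, which 7.77% of the windows held. Of the 10 genes, URA10 had 2 copies and URA2 and URA4 had 1 copy each. CPA1, which serves carbamoyl phosphate synthesis for arginine, had 1 copy, and the URA10 and CPA1 stretches are shown because the levels of these genes are set side by side below. They lie at chrXIII:807763-807786 and chrXIII:807689-807712 (minus strand) for URA10 and chrXV:882599-882618 (plus) for CPA1.
URA10, distal: ctctacaccTGACTCacatgacag
URA10, proximal: atttcaaggGAGTCAtacataacc
CPA1: tttctTGACTCgtcgtttct
GAGTCA is the same motif read on the opposite strand.

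Tests were made within a table with limma on log2(FPKM + 1), adjusted by Benjamini-Hochberg over every gene averaging 1 FPKM or more, and a gene is called where the adjusted p is under 0.05. Fold changes are on that scale, which understates changes of low genes. Depth is unknown because FPKM hold no counts. The labels do not say whether libraries of a group were separate cultures, so p-values measure only the spread between these libraries, which may be technical. Each wild-type library stands alone, was assumed to vary like the strains, and its own state and a change in the strains cannot be told apart. RD1 stood apart: its 3 a-type mating markers (MFA1, MFA2 and STE2) were at 446 to 2559 FPKM, against 3.47 to 12.05 FPKM in RD5, RD6 and ControlSYN3. Its 3 alpha-type markers (MF(ALPHA)1, MF(ALPHA)2 and STE3) were at 22.4 to 27.4 FPKM, against 546 to 6637 FPKM there. In GD, SD and control the alpha-type markers were at 76.65 to 8571 FPKM and the a-type markers at 5.10 to 102 FPKM.

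**Figure D1:**
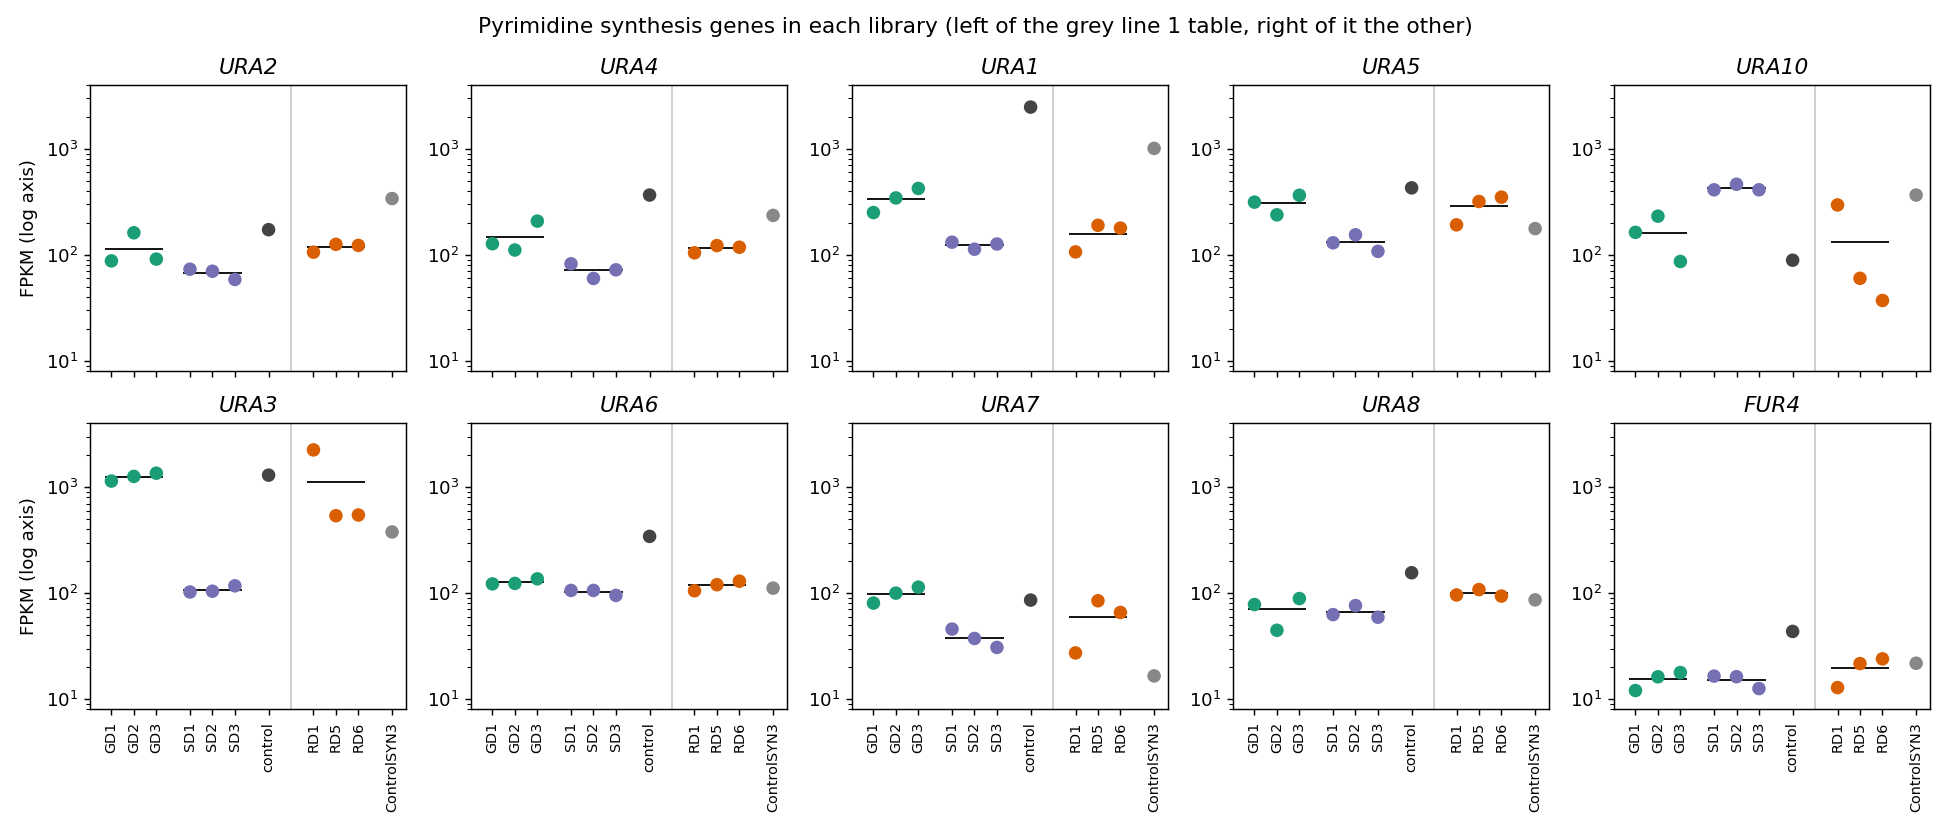
FPKM (log axis) of the 10 pyrimidine genes in each library, with a black line at the mean of each group of 3; the grey line parts the 2 tables, which were scaled separately. URA3 was at 102 to 117 FPKM in the SD libraries and at 1139 to 1352 FPKM in the GD libraries, while URA1 was higher in control (2471 FPKM) and ControlSYN3 (1008 FPKM) than in any strain of its table.

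In FPKM URA1, which makes orotate, was lower in every strain library than in the wild-type library of its table, and so were URA4 and URA2, the enzymes before it. For URA2 in GD2 the log2 ratio to control was only -0.10, a smaller fall than the median log2 change of all genes in GD (-0.44). URA1 had 250.1, 343 and 422 FPKM in GD1 to GD3 and 131, 113 and 126 FPKM in SD1 to SD3, against 2471 FPKM in control. None of these groups overlapped, and SD was the lowest. The log2 change was -2.90 ± 0.31 (SE; limma adjusted p = 0.00302) for GD against control and -4.32 ± 0.31 (SE; limma adjusted p = 0.000629) for SD against control. GD exceeded SD by 1.42 ± 0.22 (SE; limma adjusted p = 0.0028). In the other table URA1 had 106, 189 and 178 FPKM in RD1, RD5 and RD6, against 1008 FPKM in ControlSYN3. The RD libraries all lay far below ControlSYN3, yet with RD1 in the fit the difference was not called (log2 change -2.71 ± 0.43, SE; limma adjusted p = 0.410).

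URA4, the dihydroorotase gene, had 127, 111 and 208 FPKM in GD1 to GD3 and 82.2, 59.8 and 72.1 FPKM in SD1 to SD3, against 366 FPKM in control. It followed the order of URA1, with control above GD and GD above SD. It was lower than control in SD (log2 change -2.35 ± 0.36, SE; limma adjusted p = 0.00284) and also in GD (-1.35 ± 0.36, SE; limma adjusted p = 0.0284). The GD call was lost without GD1 (limma adjusted p = 0.0724), without SD3 (0.0576), with median-of-ratios scaling (0.162) and in a fit of only GD and control (0.0962). GD was higher than SD by 1.01 ± 0.26 (SE; limma adjusted p = 0.0174), a call lost without SD2 (0.0642) or SD3 (0.0614). In RD1, RD5 and RD6 it was at 104, 122 and 118 FPKM, against 235 FPKM in ControlSYN3.

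URA2, the large gene of the first steps (X, 165723 to 172367), had 87.5, 161 and 91.0 FPKM in GD1 to GD3 and 73.0, 69.9 and 58.4 FPKM in SD1 to SD3, against 172 FPKM in control. GD2 lay close to control and apart from GD1 and GD3. SD was lower than control (log2 change -1.36 ± 0.35, SE; limma adjusted p = 0.0185), a call lost without SD3 (0.0565). GD was not called against control (limma adjusted p = 0.180) or against SD (0.0584). Without GD2 it was lower than control (log2 change -0.94; limma adjusted p = 0.00816) and higher than SD (0.41; limma adjusted p = 0.0408), and with median-of-ratios scaling it was also higher than SD (0.73; 0.0336). RD1, RD5 and RD6 had 106, 125 and 122 FPKM, against 339 FPKM in ControlSYN3.

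URA3, which makes UMP and lies at V, 116167 to 116970 of the reference, did not follow URA1 in GD, though both were far below control in SD. It stayed in GD at the level of control, while SD lay far below both. It had 1139, 1261 and 1352 FPKM in GD1 to GD3 and 102, 104 and 117 FPKM in SD1 to SD3, against 1296 FPKM in control. Control lay within the GD libraries, and the SD libraries lay close together. SD averaged 108 ± 8.05 FPKM (SD, n = 3), with a log2 change of -3.58 ± 0.24 (SE; limma adjusted p = 0.000613) against control. GD averaged 1251 ± 107 FPKM (SD, n = 3) and exceeded SD by 3.52 ± 0.17 (SE; limma adjusted p = 6.87e-05). Against control GD was not called: the log2 change was -0.05, with a 95% interval of -0.62 to 0.51 (limma adjusted p = 0.874). Its sign turned with median-of-ratios scaling (0.36) and without GD1 (0.01). URA3 was not alone in this: URA2, URA5 and URA7 were also called lower than control in SD and not called in GD. Their log2 changes were -1.36, -1.72 and -1.18 in SD, smaller falls than that of URA3, and -0.66, -0.51 and 0.18 in GD.

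In the other table URA3 had 2243, 537 and 545 FPKM in RD1, RD5 and RD6, against 377 FPKM in ControlSYN3. RD1 lay far above the rest, and RD5 and RD6 lay together above ControlSYN3. The RD group was not called (log2 change 1.20 ± 1.04, SE; limma adjusted p = 0.552). RD1, with the mating-type markers given above, also had LYS2 (lysine synthesis) at 174 FPKM, where RD5 had 0.02 FPKM and RD6 and ControlSYN3 are listed at 0. HIS3, a histidine synthesis gene, was at 1613 FPKM in RD1, at 236 and 215 FPKM in RD5 and RD6 and at 1116 FPKM in ControlSYN3. In the table of GD and SD its GD libraries had 4231 to 15693 FPKM and its SD libraries 4256 to 4942 FPKM, and control had 209 FPKM. HIS3 was thus high in both strain groups there while URA3 differed between them. Of 6 construction marker genes tested there, HIS3 included, 2 were higher than control in GD and 3 in SD, and 0 were lower. Of all genes 4.98% were higher and 27.1% lower in GD, and 10.4% were higher and 31.4% lower in SD. LYS2 had no row in that table. The part of such strain differences in the URA3 value of RD1 was not tested.

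Set against URA1 in the same library, URA3 was the more abundant in every GD and RD library and the less abundant in every SD and wild-type library. The ratio of URA3 to URA1 FPKM was 4.56, 3.67 and 3.20 in GD1 to GD3 and 0.780, 0.924 and 0.928 in SD1 to SD3, against 0.524 in control. GD and SD did not overlap, and SD lay nearer to control than to GD. On the log2(FPKM + 1) scale the ratio averaged 1.91 ± 0.26 in GD and -0.19 ± 0.14 in SD (SD, n = 3 each), a 4.30-fold difference. The exact two-sided permutation test gave p = 0.1, the smallest that 3 against 3 libraries allow. In the other table the ratio was 21.1, 2.84 and 3.06 in RD1, RD5 and RD6, against 0.374 in ControlSYN3, and this difference was not tested.

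**Figure D2:**
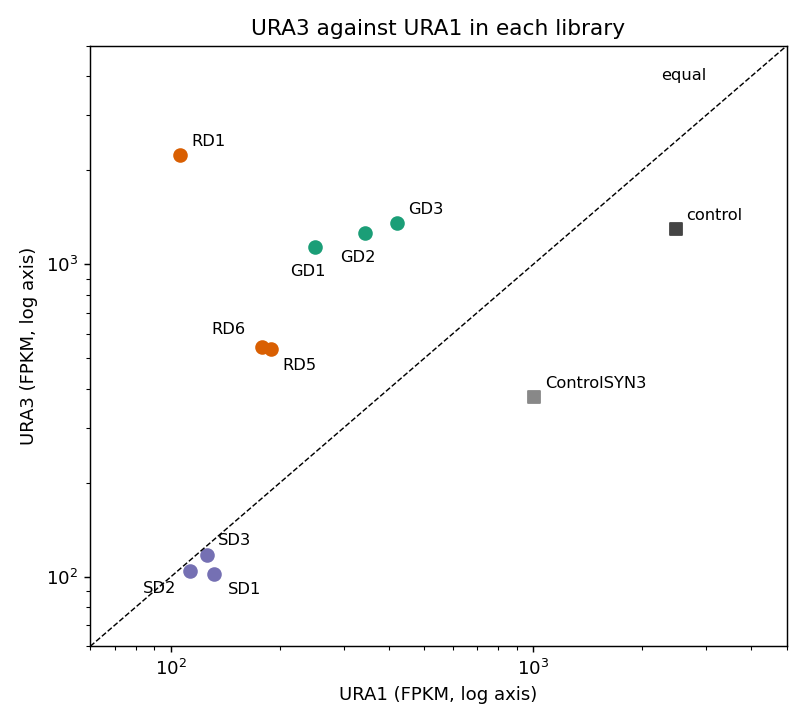
URA3 FPKM against URA1 FPKM in each of the 11 libraries (log axes); circles are strains, squares the wild-type libraries, and the dashed line marks equal levels. The GD and RD libraries lie above the line, the SD libraries just below it (ratios of 0.780 to 0.928), and control (0.524) and ControlSYN3 (0.374) farther below.

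URA3 was also compared with the other 9 genes as a group. Their median was 122, 123 and 114 FPKM in GD1 to GD3 and 82.2, 76.2 and 72.1 FPKM in SD1 to SD3, against 172 FPKM in control. URA3 stood at 9.33, 10.2 and 11.9 times this median in GD1 to GD3 and at 1.247, 1.37 and 1.62 times in SD1 to SD3, against 7.51 times in control. By this measure GD lay nearer to control, since several of the 9 genes changed far less than URA1. On the log2 scale GD and SD differed by 2.89 (exact two-sided permutation p = 0.1; adjusted over the 2 ratios tested, 0.1). URA3 was at 21.3, 4.48 and 4.63 times the median in RD1, RD5 and RD6, against 2.14 times in ControlSYN3.

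In FPKM the reference neighbours of URA3, named because of their place, differed less between SD and control than URA3 did, and more between GD and control. All genes shared a shift in GD against control, with a median log2 change of -0.44. Less that median URA3 stood at 0.38, and the neighbours were not adjusted for it, so their difference between GD and control cannot be told apart from this shift. GEA2 (V, 111421 to 115800), upstream, was at 30.5 to 35.5 FPKM in GD and 17.2 to 20.8 FPKM in SD, against 45.1 FPKM in control. TIM9 (V, 117211 to 117474), downstream, was at 92.2 to 144 FPKM in GD and 77.5 to 140.5 FPKM in SD, against 264 FPKM in control. Control was the highest for both genes, and SD was the lowest group for GEA2, while SD and GD overlapped for TIM9. The labels do not say whether reads keep their strand, so those from overlapping transcripts cannot be told apart.

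Orotate phosphoribosyltransferase is encoded by URA5 (XIII, 56773 to 57453) and URA10 (XIII, 806865 to 807548), and these changed in opposite directions in SD. URA5 had 313, 238 and 364 FPKM in GD1 to GD3 and 129.6, 154 and 108 FPKM in SD1 to SD3, against 428 FPKM in control. URA10 had 163, 231 and 86.4 FPKM in GD1 to GD3 and 409.8, 462.5 and 410.2 FPKM in SD1 to SD3, against 88.8 FPKM in control. For URA5 the SD libraries were the lowest and for URA10 the highest, and GD3 was close to control in both genes. SD was lower than control in URA5 (log2 change -1.72 ± 0.31, SE; limma adjusted p = 0.00484) and higher in URA10 (2.25 ± 0.47, SE; limma adjusted p = 0.00834). Between GD and SD, URA5 was higher in GD by 1.21 ± 0.22 (SE; limma adjusted p = 0.00508) and URA10 was lower (log2 change -1.52 ± 0.33, SE; limma adjusted p = 0.0106). GD was not called against control in URA5 (limma adjusted p = 0.234) or URA10 (0.257), though without GD3 URA10 was (log2 change 1.12; limma adjusted p = 0.0256).

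In RD the isozyme pair split by library. URA5 had 192, 318 and 349 FPKM in RD1, RD5 and RD6, against 176 FPKM in ControlSYN3, and URA10 had 295, 59.9 and 37.0 FPKM, against 366 FPKM in ControlSYN3. URA10 thus exceeded URA5 in SD, RD1 and ControlSYN3, and URA5 exceeded URA10 in GD, RD5, RD6 and control. The sum of both genes varied much less, from 451 to 476 FPKM in GD and 518 to 617 FPKM in SD, against 516 FPKM in control. In RD it was 378 to 487 FPKM, against 542 FPKM in ControlSYN3. The coding sequences align at 68.3% identity with no identical run over 11 bases. For URA7 and URA8 these values are 71.7% and 17 bases, so a read of ordinary length has mismatches to the wrong copy. The sources used here do not say how the authors' counting split such reads.

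**Figure D3:**
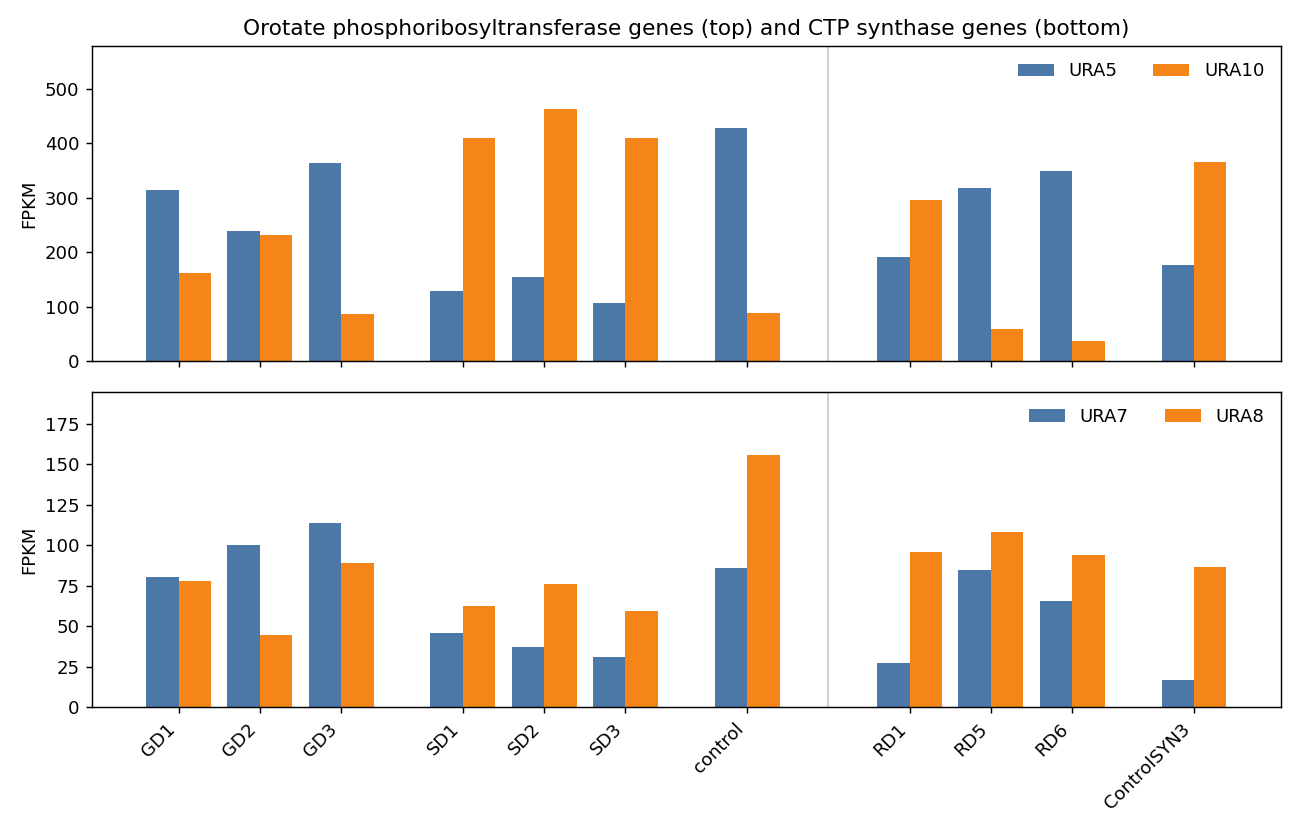
FPKM of URA5 and URA10 (top) and of URA7 and URA8 (bottom) in each library, bars from 0; the grey line parts the 2 separately scaled tables. URA10 was the taller bar in SD1, SD2, SD3, RD1 and ControlSYN3, and URA7 was taller than URA8 in the 3 GD libraries and lower in every other library.

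URA10 was set beside CPA1, a gene of carbamoyl phosphate synthesis for arginine, and their orders matched in part. CPA1 had 733, 1883 and 323 FPKM in GD1 to GD3 and 1275, 1122 and 1192 FPKM in SD1 to SD3, against 226 FPKM in control. As for URA10, GD2 was the highest and GD3 the lowest of the GD libraries, and control was below all SD libraries. Unlike URA10, CPA1 was higher in GD2 than in every SD library, it was lowest of the SD libraries in SD2, where URA10 was highest, and GD against SD was not called (limma adjusted p = 0.391). CPA1 had 1272, 282 and 172 FPKM in RD1, RD5 and RD6, against 2039.9 FPKM in ControlSYN3, again the order of URA10. These shared orders were not particular to URA10 and CPA1. SDT1, an uptake and salvage gene, had 189, 579 and 91.3 FPKM in GD1 to GD3 and 175 to 225 FPKM in SD, against 76.9 FPKM in control. It had 209, 57.7 and 49.9 FPKM in RD1, RD5 and RD6, against 388 FPKM in ControlSYN3. In SD against control CPA1 was higher by 2.40 ± 0.81 (SE; limma adjusted p = 0.0474). URA2 and URA4, which also held TGACTC, went the other way there (log2 changes of -1.36 and -2.35). The CPA1 call was lost without SD1 (0.0889), SD2 (0.0783), SD3 (0.0936) or GD1 (0.081). In GD against control CPA1 was not called (limma adjusted p = 0.130). Without GD3 it was (2.38; limma adjusted p = 0.0203), and without GD2 CPA1 was lower in GD than in SD (-1.29; limma adjusted p = 0.0158).

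URA6, the UMP kinase gene, was lower than control in every GD and SD library. It had 122, 123 and 136 FPKM in GD1 to GD3 and 106, 106 and 95.03 FPKM in SD1 to SD3, against 343 FPKM in control. Every GD library lay above every SD library, by far less than either lay below control. The log2 change was -1.42 ± 0.20 (SE; limma adjusted p = 0.00454) for GD and -1.74 ± 0.20 (SE; limma adjusted p = 0.00136) for SD against control. The GD call was lost in a fit of only GD and control (0.0531). GD and SD were not called as different (log2 change 0.31, 95% interval -0.01 to 0.64; limma adjusted p = 0.110). RD1, RD5 and RD6 had 105, 119.9 and 129.5 FPKM and ControlSYN3 had 111 FPKM, so here the wild-type library lay within the strains.

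Among the CTP synthase genes, URA7 differed between GD and SD and its isozyme gene URA8 was not called. URA7 had 80.5, 99.8 and 114 FPKM in GD1 to GD3 and 45.7, 37.3 and 30.7 FPKM in SD1 to SD3, against 85.8 FPKM in control. GD spread around control and SD lay below both. SD was lower than control (log2 change -1.18 ± 0.27, SE; limma adjusted p = 0.0123), a call lost with median-of-ratios scaling (0.0681). GD exceeded SD by 1.35 ± 0.19 (SE; limma adjusted p = 0.002). URA8 had 77.95, 44.6 and 88.8 FPKM in GD1 to GD3 and 62.6, 76.2 and 59.2 FPKM in SD1 to SD3, against 156 FPKM in control. The GD and SD libraries overlapped, and all lay below control. GD minus SD was 0.04 (95% interval -0.56 to 0.65; limma adjusted p = 0.905).

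URA8 was called lower than control in both strain groups, at -1.19 ± 0.37 for GD (SE; limma adjusted p = 0.0436) and -1.23 ± 0.37 for SD (SE; limma adjusted p = 0.0309). These were the weakest calls of the pathway. The GD call was lost with median-of-ratios scaling (0.241), in a fit of only GD and control (0.120) and without GD1 (0.0711), SD1 (0.0748), SD2 (0.0633) or SD3 (0.0749). The SD call was lost with that scaling (0.159) and without GD1 (0.0527), SD1 (0.0718) or SD3 (0.0816). In the other table URA7 had 27.2, 84.6 and 65.6 FPKM in RD1, RD5 and RD6, against 16.5 FPKM in ControlSYN3. URA8 had 96.0, 108 and 93.8 FPKM in RD1, RD5 and RD6, against 86.3 FPKM in ControlSYN3. For URA7 RD1 lay nearest to ControlSYN3, while URA8 was nearly even.

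FUR4, the uracil permease gene, was the least abundant of the 10 genes in every library but ControlSYN3, where URA7 was lower. It had 12.04, 16.2 and 17.8 FPKM in GD1 to GD3 and 16.5, 16.3 and 12.6 FPKM in SD1 to SD3, against 43.5 FPKM in control. GD and SD overlapped and both lay below control, at -1.46 ± 0.27 for GD (SE; limma adjusted p = 0.00925) and -1.48 ± 0.27 for SD (SE; limma adjusted p = 0.00507). The GD call was lost in a fit of only GD and control (0.0563). GD minus SD was 0.01 (95% interval -0.43 to 0.46; limma adjusted p = 0.953). RD1, RD5 and RD6 had 12.8, 21.6 and 23.95 FPKM, and ControlSYN3 had 21.8 FPKM.

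Counted together, 9 of the 10 genes were lower and 1 was higher in SD than in control, where 41.8% of the 5899 genes tested were called (31.4% lower, 10.4% higher). With median-of-ratios scaling, which evens out the typical gene, 7 were lower, 1 was higher and 2 were not called. The median log2 change of the 10 genes was -1.60, against -0.37 for all genes. In GD against control 5 of the 10 were lower (URA1, URA4, URA6, URA8 and FUR4) and none higher, where 32.1% of genes were called (27.1% lower, 4.98% higher). The median of the 10 genes was -0.93, against -0.44 for all genes. With that scaling 3 were lower (URA1, URA6 and FUR4), and in a fit of only GD and control 1 was called, URA1. Over all genes, that scaling changed the split from 294 higher and 1601 lower to 550 and 530 in GD, and from 616 and 1852 to 1103 and 1032 in SD. Less the median of all genes, URA1 stood at -2.46 in GD and -3.94 in SD, and URA3 at 0.38 and -3.20.

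Between GD and SD, 5 of the 10 genes were higher in GD (URA1, URA3, URA4, URA5 and URA7), 1 was lower (URA10) and 4 were not called, where 40.8% of genes were called (20.4% higher, 20.4% lower). In 8 of the 10 genes the GD and SD libraries did not overlap, as in 56.4% of all genes. GD and SD are each compared with the same control library, so their values against it are not independent of each other. In RD against ControlSYN3 none of the 10 genes was called, nor was any gene in the table (0% of 5895). At an unadjusted limma p under 0.05 there were 3 of the 10 (URA1, URA2 and URA4) and 671 of all genes.

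**Figure D4:**
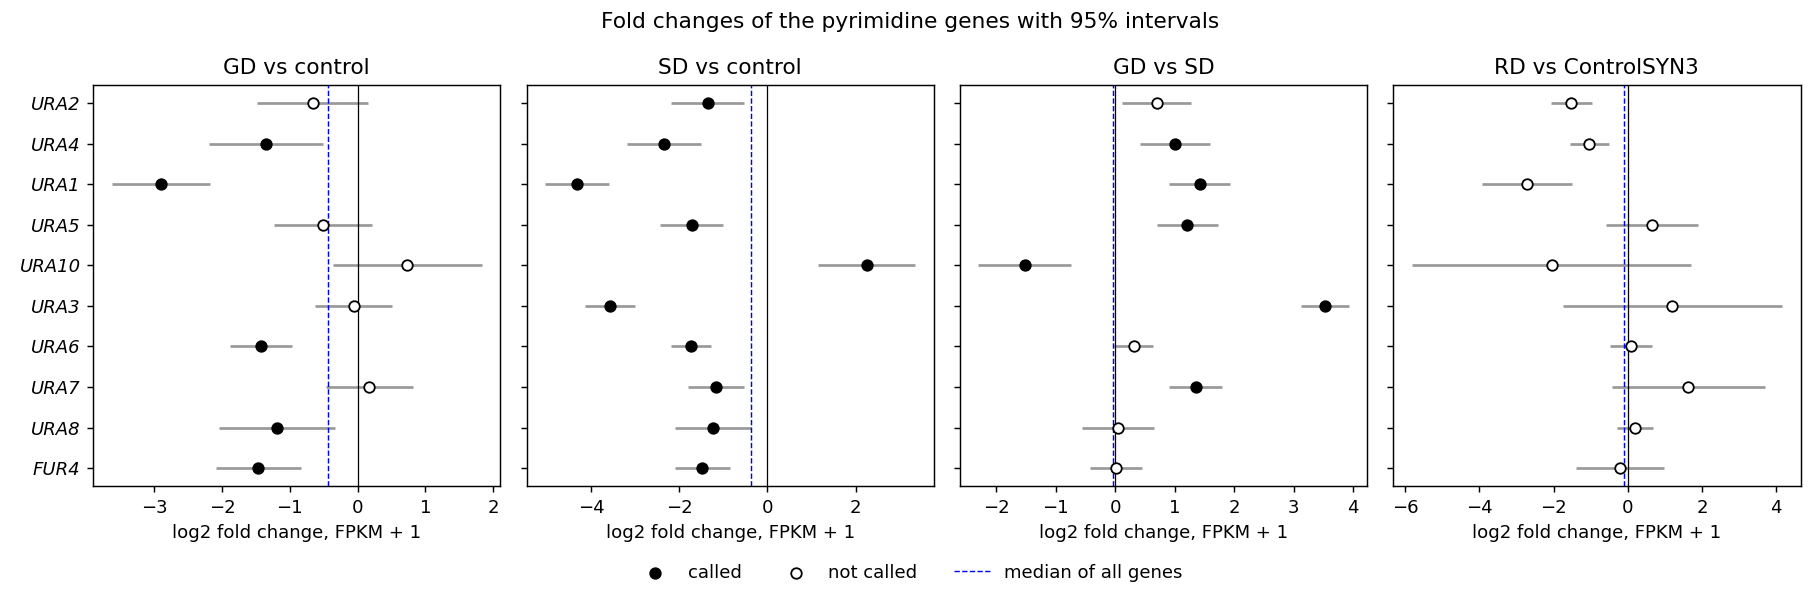
Log2 fold changes on FPKM + 1 (points) with 95% intervals (bars) for the 10 genes in the 4 comparisons; filled points were called at a limma adjusted p under 0.05, and the dashed line is the median of all genes. URA1 is the lowest gene against control in GD (-2.90) and in SD (-4.32), while URA3 lies near 0 in GD (-0.05) and at -3.58 in SD.

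Without RD1, whose markers set it apart, 4 of the 10 genes were lower in RD5 and RD6 than in ControlSYN3, 3 were higher and 3 were not called, where 56.1% of 5876 genes were called (22.9% higher, 33.2% lower). A share of 7 in 10 is near that background. This fit had 1 residual degree of freedom and rests on a pair of libraries that resemble each other. URA10 (log2 change -2.93 ± 0.27, SE), URA1 (-2.45 ± 0.13), URA2 (-1.44 ± 0.11) and URA4 (-0.97 ± 0.10) were lower, with limma adjusted p from 0.000349 to 0.00141. URA7 (2.11 ± 0.17, SE), URA5 (0.91 ± 0.13) and URA3 (0.52 ± 0.14) were higher, with limma adjusted p from 0.000669 to 0.0275. URA6, URA8 and FUR4 were not called.

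Genes that feed the pathway or bypass it moved in both directions. PPR1, the activator gene, had 10.9, 15.6 and 9.65 FPKM in GD1 to GD3 and 12.7, 11.8 and 10.3 FPKM in SD1 to SD3, against 19.65 FPKM in control, and was called in none of the 4 comparisons. Without GD2 it was lower than control in GD (limma adjusted p = 0.0173) and in SD (0.0221), and a fit of only SD and control also called it (0.0222). In GD against control none of 7 genes of regulation and precursor supply was called, where 32.1% of all genes were. In SD 1 was higher (CPA1) and 6 were not called, where 41.8% of all genes were called. Between GD and SD 1 was lower in GD and 6 were not called, where 40.8% of all genes were called. It was PRS2, a gene of PRPP synthesis, with 59.3 to 79.1 FPKM in GD and 103 to 114 FPKM in SD. Its log2 change was -0.67 (limma adjusted p = 0.0113), a call lost without SD3 (0.0572). The list medians were -0.08, -0.31 and 0.16 in these comparisons, against -0.44, -0.37 and -0.04 for all genes.

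Of 8 uptake and salvage genes, 1 was higher and 3 lower in GD than in control, and 1 was higher and 4 lower in SD. Of all genes 4.98% were higher and 27.1% lower in GD, and 10.4% were higher and 31.4% lower in SD. FCY2, the cytosine permease gene, had 232 to 609 FPKM in GD and 319 to 433 FPKM in SD, against 68.8 FPKM in control. Its log2 change was 2.33 in GD (limma adjusted p = 0.0137; 0.0592 in a fit of only GD and control) and 2.41 in SD (limma adjusted p = 0.00769). FCY1, the cytosine deaminase gene, moved the other way, with 337 to 486 FPKM in GD and 231 to 306 FPKM in SD, against 1042 FPKM in control (limma adjusted p = 0.0151 for GD and 0.00272 for SD). Its GD call was lost with median-of-ratios scaling (0.0984) and in a fit of only GD and control (0.0838). CDD1, of cytidine deamination, had 31.2 to 36.6 FPKM in GD and 27.7 to 29.85 FPKM in SD, against 95.5 FPKM in control (limma adjusted p = 0.0036 for GD and 0.000953 for SD). The list medians were -0.60 in GD and -1.22 in SD against control, where the medians of all genes were -0.44 and -0.37.

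Between GD and SD 2 of the 8 salvage genes were higher in GD and none lower, where 20.4% of all genes were higher and 20.4% lower. URH1, a nucleoside hydrolase gene, had 42.7 to 49.5 FPKM in GD and 20.6 to 28.5 FPKM in SD (log2 change 0.93; limma adjusted p = 0.0034). FUR1, which turns uracil into UMP, had 212, 105 and 208 FPKM in GD1 to GD3 and 113, 80.1 and 81.3 FPKM in SD1 to SD3, against 168 FPKM in control. GD was higher than SD (0.88; limma adjusted p = 0.0484), a call lost with median-of-ratios scaling (0.0603) and without GD1, GD3, SD1, SD2 or SD3 (0.0606 to 0.155). FUI1, the uridine permease gene, had 19.3, 86.4 and 33.4 FPKM in GD1 to GD3 and 33.3 to 42.2 FPKM in SD, against 123 FPKM in control. It was not called against control in GD (0.0951) or SD (0.0725), though it was in GD without GD2 (log2 change -2.24; limma adjusted p = 0.00321) and in SD without GD1 (0.0387) or GD2 (0.0029) and in a fit of only SD and control (0.00158). URK1, the uridine kinase gene, had 38.6 to 49.7 FPKM in GD and 33.1 to 35.4 FPKM in SD, against 67.55 FPKM in control. It was lower in SD (-0.96; limma adjusted p = 0.00735) and in GD (-0.66; 0.0384), the GD call being lost in 6 of 11 alternatives.

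Of 5 further nucleotide genes downstream of UMP, 4 were lower in SD than in control and 1 in GD, where 31.4% and 27.1% of all genes were lower. CDC21, the thymidylate synthase gene, had 78.4, 25.0 and 80.0 FPKM in GD1 to GD3 and 7.15, 9.97 and 5.74 FPKM in SD1 to SD3, against 127 FPKM in control. The SD libraries lay far below the rest (log2 change -3.92 for SD against control; limma adjusted p = 0.00338), and GD exceeded SD by 2.71 (limma adjusted p = 0.00364). DUT1, the dUTPase gene, was higher in GD than in SD by 1.66 (limma adjusted p = 0.00238) and lower in SD than in control (-1.48; limma adjusted p = 0.0134), a call lost with median-of-ratios scaling (0.0726). DCD1, of dCMP deamination, was lower in SD than in control (-1.19; limma adjusted p = 0.0048). YNK1, the nucleoside diphosphate kinase gene, had 355 to 720.45 FPKM in GD and 1033 to 1279 FPKM in SD, against 1688 FPKM in control. GD fell below control (-1.64; limma adjusted p = 0.0237) and below SD (-1.06; limma adjusted p = 0.0239). The call against control was lost with median-of-ratios scaling (0.12), without SD3 (0.0516) and in a fit of only GD and control (0.0918), and that against SD without GD1, SD1, SD2 or SD3 (0.0532 to 0.0763). Between GD and SD all 5 were called, 4 higher and 1 lower in GD, where 40.8% of all genes were called. CDC21 and DUT1 are also known as genes of S phase; how the share of cells in each cell cycle phase differed between libraries was not tested, and fewer such cells cannot be told apart from less RNA per cell.

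**Figure D5:**
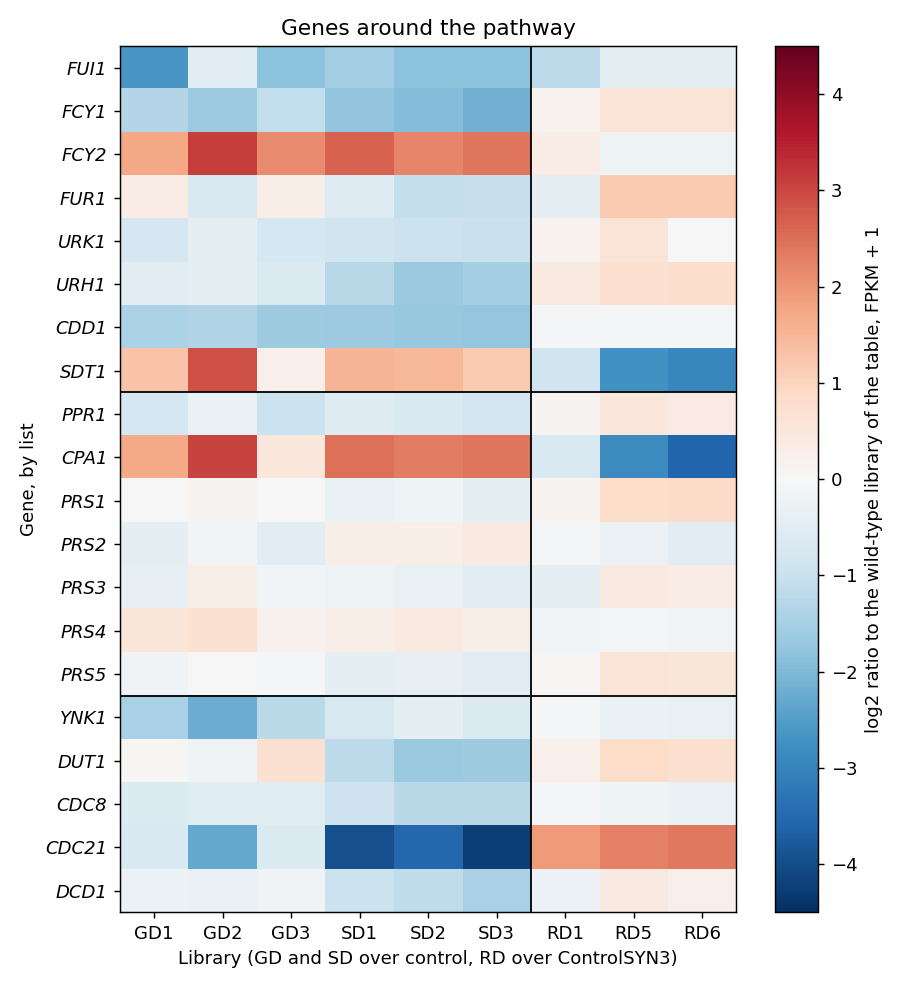
Log2 ratio of each strain library to the wild-type library of its table (FPKM + 1; red higher, blue lower) for genes of uptake and salvage (top), regulation and precursor supply (middle) and downstream nucleotides (bottom). CPA1 is red in GD and SD and blue in RD, and CDC21 is blue in GD and SD, darkest in SD, and red in RD.

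The genes most like URA3 over the 7 libraries of GD, SD and control were TOS6, UTR2, ENO2, GAS3 and TOS4 of 5499 genes ranked. Their centred log2 profiles differed from that of URA3 by 0.43 to 0.58 (root mean square). Of the pathway genes, URA5 ranked 197 and URA7 199 in likeness to URA3, and URA1 255 (root mean square differences 1.12, 1.13 and 1.17). Over the 4 libraries of the other table, Pearson r with URA3 was 0.51 for TOS6, -0.52 for UTR2, -0.42 for ENO2, 0.35 for GAS3 and 0.38 for TOS4. For URA1 the nearest were ACM1, CSN9, YOL014W, SPR28 and NOP56 (0.45 to 0.54), and URA4 ranked 34 (0.67). In the other table Pearson r with URA1 was -0.88, -0.37, -0.28, 0.98 and -0.14 for the first 5 genes and 0.996 for URA4. The libraries of a group and the scaling of the table are shared by these profiles, so the likeness is a description of these 7 libraries.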

How the data were processed

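RNA was taken from 11 samples with Trizol and made into oligo-dT libraries, per the labels' protocols. The authors deposited FPKM in 2 tables. RSEM, Bowtie2, BWA and build R64 are named in the submitters' processing notes, which give no version, role or order. At the best point of a grid of library sizes and fragment lengths, only 35.3 to 55.0% of 14 to 34 low values per library lay within 0.1 of a whole number, so whole fragments were not recovered and depth is unknown. Every column was given a sample, the MD columns by number. Symbols came from the R64 annotation (5774 of 5936 and 5770 of 5931 rows matched). The sources used here do not say whether reads keep their strand.

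limma 3.58.1 (R 4.3.3) was fitted per table to log2(FPKM + 1) with a mean per group, trend and robust estimates. It left 4 residual degrees of freedom (GD, SD, control) and 2 (RD, ControlSYN3). Every gene averaging 1 FPKM or more was tested and the script was checked on simulated data. The simulation gave all libraries of a table the same spread for a gene. It therefore could not check the assumption that a single wild-type library varies like the strains. Ratios were tested exactly with SciPy 1.17.1, and isozyme alignment used Biopython 1.88. Named were the 10 genes, fixed regulators and salvage genes (PPR1, FUR1, FUI1, URK1, CPA1), up to 3 called genes of each related list with the largest change, and 5 pattern neighbours of at least 10 FPKM. Members and lists were chosen with earlier results of these data known. Alternatives were other minimums, a pseudocount of 0.1, median-of-ratios scaling, smaller fits, a replicate block and leaving out each library. 1 gene was left out of the related lists and their counts and is not reported here.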

Additional observations from a re-analysis of the deposited data

Results flagged for a closer look

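Several genes moved in opposite directions in different strains relative to the wild-type library of their own table. The values are differences of mean log2(FPKM + 1) ratios, and these differences were not tested, since the tables were scaled separately and each has 1 wild-type library. URA3 was above ControlSYN3 in every RD library (log2 ratios of 0.51 to 2.57) and below control in every SD library (-3.65 to -3.46), a difference of 4.78. URA10 was below ControlSYN3 in every RD library (-3.27 to -0.31) and above control in every SD library (2.19 to 2.37), a difference of -4.31. URA7 was above ControlSYN3 in RD (0.69 to 2.29) and below control in SD (-1.45 to -0.89), a difference of 2.81. URA5 was above ControlSYN3 in RD (0.12 to 0.98) and below control in SD (-1.98 to -1.46) and in GD (-0.84 to -0.23), with differences of 2.37 and 1.16. Its GD part is small: GD was not called against control (limma adjusted p = 0.234). Less the median change of all genes, URA5 in GD stood at -0.07. URA8 was above ControlSYN3 in RD (0.12 to 0.32) and below control in SD (-1.38 to -1.02) and in GD (-1.78 to -0.80), with differences of 1.43 and 1.39. The wild-type libraries themselves differed in these genes. URA3 had 1296 FPKM in control and 377 FPKM in ControlSYN3, and URA10 had 88.8 FPKM in control and 366 FPKM in ControlSYN3. The part of the wild-type libraries in these opposite directions cannot be told apart from that of the strains.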

How the results depend on the processing

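For the 10 genes, direction and call were kept in 104 of 110 alternative fits for SD against control, 120 of 130 for GD against SD, 94 of 110 for GD against control and 62 of 70 for RD against ControlSYN3. The count of called members in GD against control was 5, but 3 with median-of-ratios scaling and 1 in a fit of only GD and control, with 1080 and 233 genes called in all (1895 in the fit reported). Leaving out 1 library gave 3 to 6 members and 1176 to 2781 genes for GD against control (3 without GD1 or SD3; 1228 genes without SD1 and 1176 without SD3). It gave 5 to 7 members and 1263 to 3222 genes for GD against SD (1570 without SD1, 1263 without SD3). For SD against control it gave 8 to 10 members and 1652 to 3257 genes. For RD against ControlSYN3 it gave 0 to 7 members and 0 to 3298 genes, the highest without RD1. The cause was not tested. Signs turned only in genes not called. With median-of-ratios scaling GD against control became 0.36 for URA3, 0.41 for FUR1, 0.064 for PRS2 and 0.17 for DCD1, and RD against ControlSYN3 became 0.055 for FCY2 and 0.022 for CDD1. Leaving out 1 library gave ranges through 0. For GD against control these were -0.11 to 0.011 for URA3, -0.18 to 0.33 for FUR1 and -0.060 to 0.36 for DUT1. For GD against SD they were -0.15 to 0.34 for URA8, -0.10 to 0.17 for FUR4, -0.15 to 0.17 for PPR1, -0.49 to 0.56 for FUI1 and -0.49 to 0.21 for FCY2. For RD against ControlSYN3 they were -0.37 to 0.060 for FUR4, -0.24 to 0.052 for FCY2 and -0.026 to 0.31 for DCD1.

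GD and SD share the strain numbers 1 to 3, and same-numbered strains did not deviate together (correlations of -0.13, -0.18 and -0.17 across genes). This cannot settle whether the numbers mark pairs, since deviations from a mean of 3 libraries are not independent of each other. With the replicate block 6 of the 10 genes were called between GD and SD, and 1963 genes in all, and the difference in YNK1 was no longer called (adjusted p = 0.0588). Paired by number, the URA3 to URA1 ratio differed by 2.10 and the URA3 to pathway ratio by 2.89 (exact sign-flip p = 0.25 for both, the smallest possible). With unknown depth, no floor can be set for low genes such as FUR4 and PPR1.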
